A study of Mus musculus with 34 samples.

Results

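The endoplasmic reticulum (ER) chaperones induced by the unfolded protein response were followed in regenerating mouse liver through 10 genes: Hspa5, Hsp90b1, Calr, Pdia4, Pdia6, Dnajb9, Dnajb11, Sdf2l1, Manf and Creld2. Their identifiers in the table are, in this order, ENSMUSG00000026864, ENSMUSG00000020048, ENSMUSG00000003814, ENSMUSG00000025823, ENSMUSG00000020571, ENSMUSG00000014905, ENSMUSG00000004460, ENSMUSG00000022769, ENSMUSG00000032575 and ENSMUSG00000023272. They were chosen by name among the 78298 genes of the deposited count table, and all 10 passed the filter on low counts that left 14980 genes for testing. Livers came from male mice of C57/Bl6 background aged 8 to 12 weeks. In SIRT1intKO mice a Cre recombinase under the Villin promoter removes floxed exon 4 of Sirt1 from the intestinal epithelium, while the mice labelled WT carry the floxed Sirt1 alleles without Cre, so no group has unmodified Sirt1 alleles. Whole liver was taken untreated (0 h) or at 6 h or 24 h after partial hepatectomy (PHx), the surgical removal of 70% of the liver that starts regrowth of the remaining lobes. There were 6, 6 and 4 WT livers and 6, 5 and 7 SIRT1intKO livers at 0, 6 and 24 h, each sequenced as 1 stranded mRNA library.

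The lumen of the ER is where secreted and membrane proteins fold, and hepatocytes, which make most plasma proteins, hold a large amount of it. When unfolded proteins build up there, the sensors IRE1 (Ern1), ATF6 and PERK (Eif2ak3) start the unfolded protein response: IRE1 splices the Xbp1 mRNA, ATF6 is released by cleavage, and PERK slows translation and favours ATF4. XBP1 and ATF6 raise the genes of ER chaperones through promoter sequences called ER stress elements. Hspa5 encodes BiP, the central HSP70 chaperone of the ER, and Hsp90b1 encodes GRP94, its HSP90. Calr encodes calreticulin, a lectin that holds glycoproteins while they fold, and Pdia4 and Pdia6 encode protein disulfide isomerases. Dnajb9 (ERdj4) and Dnajb11 (ERdj3) encode J-domain co-chaperones of BiP, and SDF2L1 works with ERdj3. Manf and Creld2 encode secreted or ER-resident proteins induced by ER stress.

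The ER stress element is CCAAT and CCACG with any 9 bases between them, and it was searched on both strands in RefSeq promoter windows of the GRCm38.p6 assembly, 250 bases before to 50 bases after each gene's start. Of 27025 genes with a window, 35 (0.13%) held an exact match. Windows were found for 9 of the 10 chaperone genes, all but Manf, and 5 of these 9 held at least 1 match, which are shown here because the element is the one named for these genes. Capitals mark the letters that the search fixed, and each site is written in the direction of the motif.
Hspa5: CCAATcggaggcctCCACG
Calr: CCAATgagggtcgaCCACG
Hsp90b1, distal: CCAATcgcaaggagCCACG
Hsp90b1, proximal: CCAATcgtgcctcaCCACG
Pdia6: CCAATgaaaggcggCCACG
Creld2: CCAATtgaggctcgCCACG

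Counted from the first base of the gene, the site of Hspa5 lay at positions -65 to -47, that of Pdia6 at -98 to -80 and the distal site of Hsp90b1 at -212 to -194, all 3 on the gene's own strand. The sites of Calr (-162 to -144) and Creld2 (-126 to -108) and the proximal site of Hsp90b1 (-107 to -89) were on the opposite strand. The related ER stress element II, ATTGG and CCACG with any 1 base between them, was in 10 of all windows (0.037%) and in that of Dnajb11, at positions 8 to 18 after the start, as ATTGGcCCACG. The UPRE core TGACGTGG (0.607% of windows), the CRE TGACGTCA (1.88%) and the AARE core TTGCATCA (0.929%) were in none of the 9; the UPRE core holds the reverse complement of CCACG and shares TGACGT with the CRE. The short core CCACG, which both ER stress elements contain, was in all 9 and in 32.7% of all windows. No match for Pdia4, Dnajb9 and Sdf2l1 says only that these exact letters are not in these windows.

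The 250 bases before the start of Hspa5 (chr2:34771840-34772089, plus strand) and of Dnajb9 (chr12:44210069-44210318, minus strand) are shown because the mRNA of these 2 genes followed different courses below. Capitals again mark the ER stress element, which is in the first of them only.
Hspa5: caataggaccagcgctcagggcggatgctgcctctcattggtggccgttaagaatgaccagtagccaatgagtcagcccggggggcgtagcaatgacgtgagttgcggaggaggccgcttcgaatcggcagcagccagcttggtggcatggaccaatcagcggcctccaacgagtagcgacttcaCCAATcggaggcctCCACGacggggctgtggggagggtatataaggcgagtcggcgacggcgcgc
Dnajb9: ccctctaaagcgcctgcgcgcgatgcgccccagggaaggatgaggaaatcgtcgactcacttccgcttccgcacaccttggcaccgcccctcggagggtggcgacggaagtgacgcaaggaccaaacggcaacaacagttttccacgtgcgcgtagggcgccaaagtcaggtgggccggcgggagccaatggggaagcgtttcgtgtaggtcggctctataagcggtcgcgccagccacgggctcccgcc

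The libraries held 14892098 to 23480480 counts each, with a median of 16807329. The chaperones were well covered, from 333 counts for Dnajb9 in its lowest library to 49506 for Hspa5 in its highest. Values are given as CPM, read counts relative to the library total after TMM scaling, which corrects for depth but not for gene length, so levels are compared between livers and not between genes. The livers carried hepatocyte transcripts throughout, with the 10 hepatocyte markers summing to between 48089 and 103779 CPM in every liver, and this sum had a median of 91309 CPM in WT livers at 0 h and 59001 CPM at 24 h, against 91725 and 73724 CPM in SIRT1intKO livers. Of other cell types, plasma cells are also rich in ER. Their markers and those of B cells summed to between 1.81 and 17.04 CPM over 9 genes, of which 5 passed the filter. At 24 h against 0 h, 2 of these 5 were called lower in WT and 5 in SIRT1intKO livers. The 7 neutrophil markers together had at most 22.96 CPM at 0 h in either genotype, 7.47 to 111 CPM in WT livers at 24 h and 23.4, 98.8 and 954 CPM in the lowest, median and highest SIRT1intKO liver at 24 h. Of the 6 that passed the filter, 3 were called higher at 24 h in WT and 6 in SIRT1intKO livers. Among all genes tested, 8.32% were called higher and 7.4% lower at 24 h in WT, and 11.9% and 11.1% in SIRT1intKO livers. Of the 10 hepatocyte markers, 1 was called higher and 4 lower in each genotype. Of the 5 cholangiocyte markers, 3 were called higher in each. Of 7 monocyte and macrophage markers, 4 were higher and 1 lower at 24 h in WT and 7 were higher in SIRT1intKO livers at an edgeR adjusted p under 0.05. At that threshold, 19.5% of all genes were higher and 14.6% lower in WT, and 26.2% and 24% in SIRT1intKO livers. The 5 cholangiocyte markers summed to 482 and 264 CPM in WT replicates 1 and 2 at 24 h against 64.5 and 78.8 CPM in replicates 3 and 4, to between 53.7 and 334 CPM in SIRT1intKO livers at 24 h and to at most 61.9 CPM at 0 h. Of 6 Kupffer cell markers, 3 were called lower at 24 h than at 0 h in WT and 1 lower and 1 higher in SIRT1intKO livers, and of 5 sinusoidal endothelial markers, 3 were called lower in WT and 3 lower and 1 higher in SIRT1intKO livers. Of 6 stellate cell markers, 1 was called lower in WT and 2 lower and 1 higher in SIRT1intKO livers. The 6 pancreatic acinar markers, of which 1 passed the filter and was called lower in both genotypes, summed to at most 53.9 CPM at 0 h and at most 16.3 CPM at 24 h, with Prss1 at 0 in every WT library. The part of changing cell numbers in the results was not tested, and in whole tissue fewer cells of a type and less RNA per cell cannot be told apart. The 0 h libraries carry library names from another numbering series than those taken after PHx, so handling and surgery cannot be told apart. At 24 h some livers stood apart on the first principal component of all genes: WT replicates 3 and 4 (-8.02 and -17.6) and SIRT1intKO replicate 5 (8.10) lay far below WT replicates 1 and 2 (86.2 and 95.9). Counts and calls of the 10 chaperones at 24 h were therefore also computed without these livers; the values of other genes and lists were not.

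**Figure D1:**
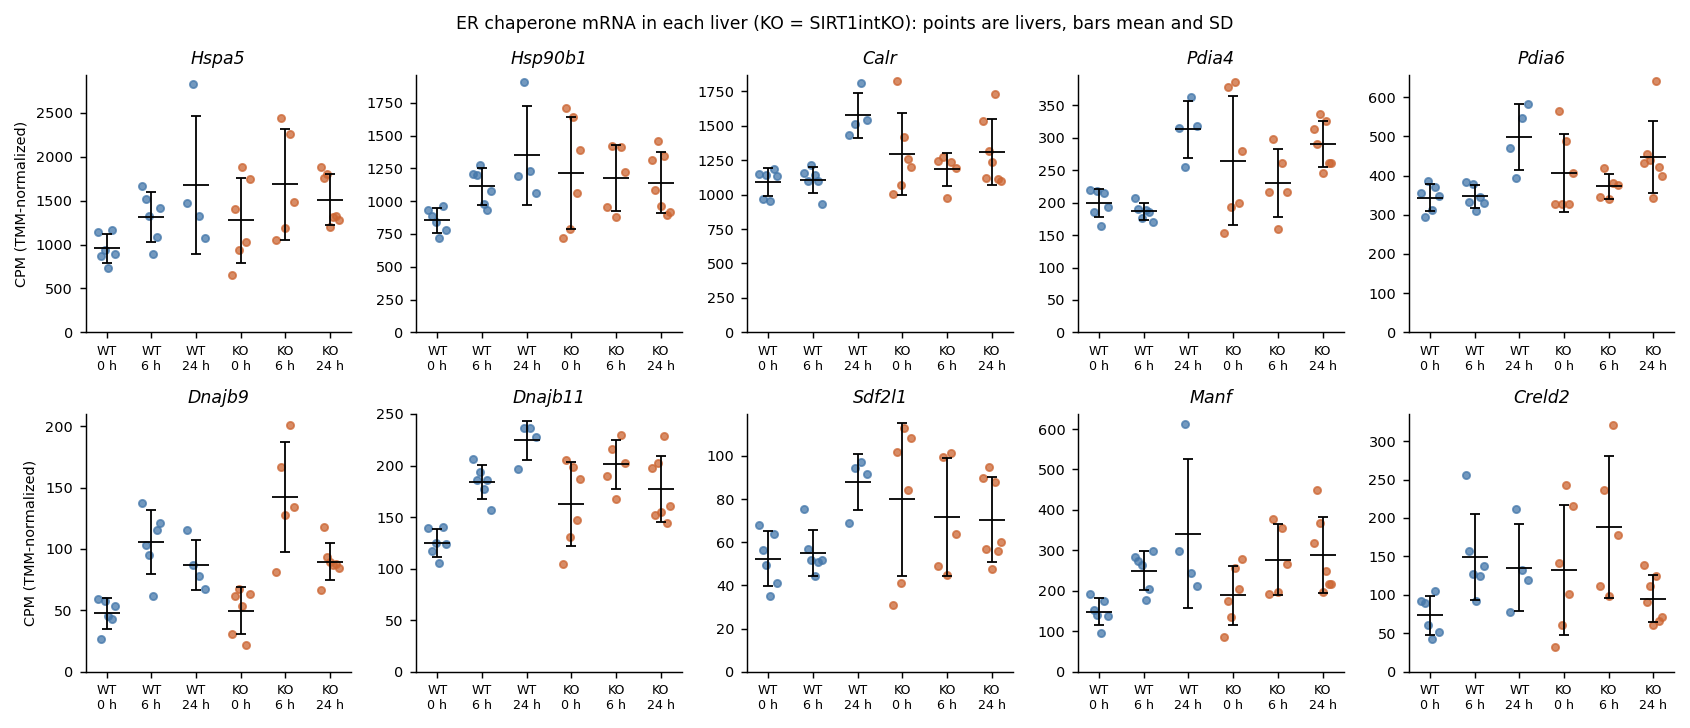
TMM-normalized CPM of the 10 chaperone genes on linear axes that start at 0; each point is 1 liver, in blue for WT and orange for SIRT1intKO (KO on the axis), and bars give the mean and SD of each group. All 4 WT livers at 24 h lay above all 6 at 0 h for 8 of the 10 genes, while the SIRT1intKO livers at 0 h already ranged from 655 to 1883 CPM for Hspa5.

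At 24 h after PHx the chaperones were higher than at 0 h in WT livers. All 10 had a positive log2 fold change, from 0.53 for Calr to 1.203 for Manf with a median of 0.78, and an edgeR adjusted p under 0.05 was reached by 9 of them, all but Creld2, where 19.5% of all genes tested were higher at that threshold. Only Manf also exceeded a log2 fold change of 1, the threshold used for calls throughout (8.32% of genes were called higher and 7.4% lower). The values of the 2 groups did not overlap for 8 chaperones, against 9.38% of all genes that were higher and 9.89% that were lower without overlap. The median log2 fold change of all genes was 0.02.

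The central chaperone Hspa5 had 737, 916 and 1166 CPM in the lowest, median and highest WT liver at 0 h and 1473, 2828, 1328 and 1078 CPM in WT replicates 1 to 4 at 24 h. Replicate 2 was far above the rest, and replicate 4 lay within the range of 0 h. The difference was 0.81 ± 0.27 on the log2 scale (SE, edgeR adjusted p = 0.0205), and without replicate 2 it was 0.44 (edgeR adjusted p = 0.261). Hsp90b1, its HSP90 counterpart, had 719, 864 and 961 CPM at 0 h and 1190, 1905, 1232 and 1065 CPM at 24 h. All 4 livers at 24 h were above those at 0 h, again with replicate 2 highest. The difference of 0.66 ± 0.21 on the log2 scale (SE, edgeR adjusted p = 0.0155) went to 0.45 without that replicate (edgeR adjusted p = 0.145).

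The lectin Calr and the 2 disulfide isomerases rose without replicate 2 standing out. Calr had 952, 1141 and 1186 CPM at 0 h and 1433, 1514, 1809 and 1543 CPM at 24 h. No value at 24 h reached down to the range at 0 h, and the log2 fold change was 0.53 ± 0.15 SE (edgeR adjusted p = 0.00585). Pdia4 went from 165, 204 and 219.96 CPM to 315, 255, 363 and 318 CPM, here with replicate 2 as the lowest of its group. Its log2 fold change was 0.65 ± 0.19 SE (edgeR adjusted p = 0.00838). Pdia6 had 294, 352 and 385 CPM at 0 h and 471, 394, 548 and 582 CPM at 24 h, with replicate 2 again lowest. The increase was 0.54 ± 0.15 log2 units (SE, edgeR adjusted p = 0.00793). Without WT replicates 3 and 4 and SIRT1intKO replicate 5, Pdia4 (0.55, edgeR adjusted p = 0.057) and Pdia6 (0.36, edgeR adjusted p = 0.078) missed the threshold.

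Among the co-chaperones, Dnajb11 changed with the smallest spread. It had 105, 124 and 141 CPM at 0 h and 197, 236, 237 and 228 CPM at 24 h, a gap with no overlap. The log2 fold change was 0.84 ± 0.15 SE (edgeR adjusted p = 0.000101), a 1.79-fold increase. Its partner Sdf2l1 had 35.3, 53.0 and 67.9 CPM at 0 h and 68.9, 94.2, 97.0 and 91.4 CPM at 24 h, where replicate 1 only just cleared the highest liver at 0 h (log2 fold change 0.75 ± 0.28 SE, edgeR adjusted p = 0.0413). The threshold was missed without WT replicate 3, 4 or 6 at 0 h or WT replicate 2, 3 or 4 at 24 h (edgeR adjusted p between 0.0636 and 0.102), and also with upper-quartile scaling (0.0515), with library totals in place of TMM (0.0606) and with all genes of at least 1 count tested (0.0647). Dnajb9 had 26.3, 49.4 and 59.2 CPM at 0 h and 115, 86.7, 77.8 and 67.5 CPM at 24 h, all 4 above the earlier range (log2 fold change 0.87 ± 0.26 SE, edgeR adjusted p = 0.0107), and without replicate 1 at 24 h the adjusted p was 0.0632.

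The ER stress proteins Manf and Creld2 also moved with replicate 2. Manf had 95.1, 146 and 191 CPM at 0 h and 297, 611, 245 and 212 CPM at 24 h. All 4 livers were higher than at 0 h, but replicate 2 was above every other liver of the series. The log2 fold change was 1.203 ± 0.29 SE (edgeR adjusted p = 0.0022), a 2.30-fold increase, and without replicate 2 it was 0.76 (edgeR adjusted p = 0.055), so that no chaperone was called. Creld2 overlapped between the groups, with 43.0, 75.1 and 105 CPM at 0 h and 77.5, 212, 133 and 119.6 CPM at 24 h, and its log2 fold change of 0.88 ± 0.40 (SE) had an edgeR adjusted p of 0.089. Without replicate 2 it was 0.58 (edgeR adjusted p = 0.365).

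How many of the 10 passed depended on which WT livers at 24 h were kept. Without replicate 2 alone, 5 of the 10 stayed under an edgeR adjusted p of 0.05, with Hspa5, Hsp90b1, Sdf2l1 and Manf lost. Without WT replicates 3 and 4 and SIRT1intKO replicate 5, 6 of the 10 passed and 3 were called, and without WT replicates 1 and 2, 4 passed and none was called. Calr and Dnajb11 passed in each of these fits. The log2 fold changes of all 10 stayed positive in each.

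**Figure D2:**
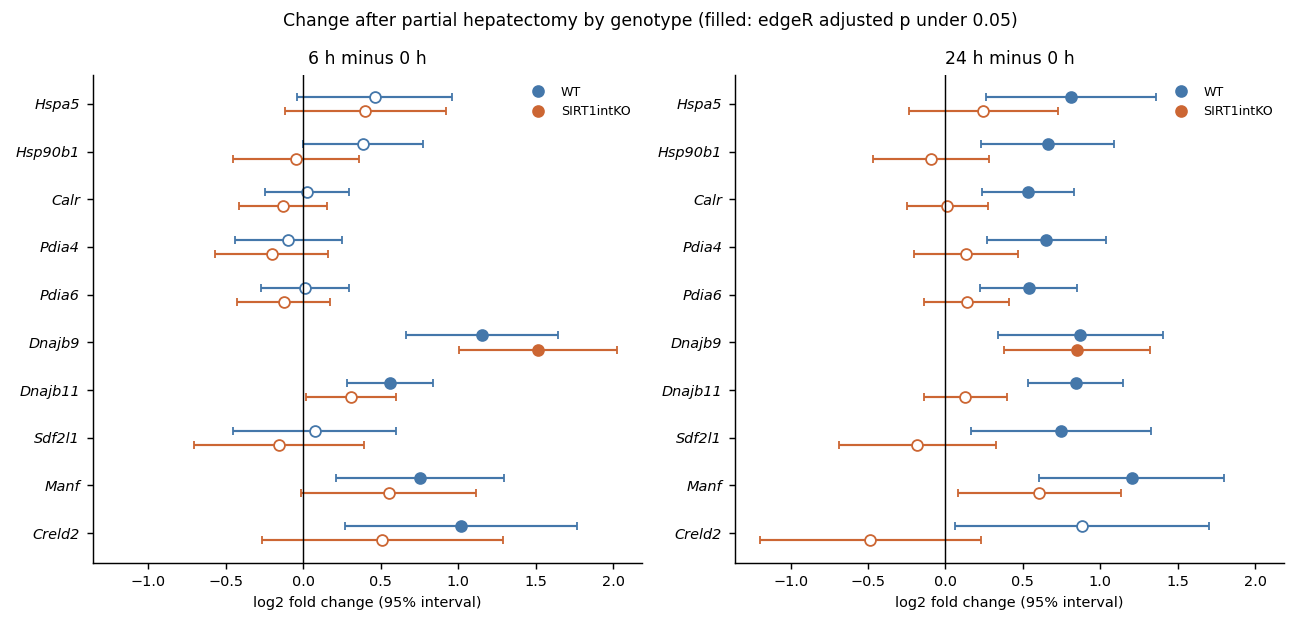
Log2 fold changes of the 10 genes at 6 h (left) and 24 h (right) against 0 h in WT (blue) and SIRT1intKO (orange) livers; bars are 95% intervals before adjustment over genes, and filled circles have an edgeR adjusted p under 0.05. At 24 h, 9 of the WT circles are filled and 1 of the SIRT1intKO circles, that of Dnajb9.

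In SIRT1intKO livers the same interval gave a smaller set of changes. A single chaperone passed an edgeR adjusted p of 0.05 at 24 h against 0 h (26.2% of all genes tested were higher at that threshold), and none was called (11.9% of genes were called higher and 11.1% lower). At an unadjusted p under 0.05 there were 2, Dnajb9 and Manf, where 8409 of 14980 genes passed. DESeq2 gave an adjusted p under 0.05 to 2 of the 10 and called none. The groups overlapped for all 10 chaperones, where 11% of all genes were higher and 10.9% lower without overlap. The log2 fold changes ran from -0.49 for Creld2 to 0.85 for Dnajb9, with 7 of 10 positive and a median of 0.13. The median over all genes was 0.04.

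Dnajb9 was the chaperone that passed. It had 21.8, 57.6 and 67.6 CPM in the lowest, median and highest SIRT1intKO liver at 0 h and 66.8, 87.9 and 118 CPM at 24 h. The lowest liver at 24 h fell just below the highest at 0 h, and the log2 fold change was 0.85 ± 0.23 SE (edgeR adjusted p = 0.00312), next to 0.87 in WT livers. Manf had 85.7, 189 and 278 CPM at 0 h and 198, 248.8 and 449 CPM at 24 h, with wide overlap. Its log2 fold change was 0.61 ± 0.26 SE (edgeR adjusted p = 0.0507), and the adjusted p fell to between 0.0229 and 0.0484 when any 1 of 9 livers was left out, SIRT1intKO replicates 4 and 6 at 0 h, SIRT1intKO replicates 4, 5, 6 and 7 at 24 h, WT replicate 4 at 0 h and WT replicates 2 and 4 at 24 h.

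The large chaperones overlapped almost completely. Hspa5 had 655, 1218 and 1883 CPM at 0 h and 1200.1, 1322 and 1882 CPM at 24 h (log2 fold change 0.24 ± 0.24 SE, edgeR adjusted p = 0.404). The highest values at the 2 times differed by less than 1 CPM, and the lowest value at 24 h was near the median at 0 h. Hsp90b1 had 716, 1225 and 1712 CPM at 0 h and 894, 1083 and 1460.2 CPM at 24 h (log2 fold change -0.09 ± 0.18 SE, edgeR adjusted p = 0.691). The values at 24 h lay inside the range at 0 h.

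The other chaperones overlapped too. Calr had 1001, 1230.2 and 1826 CPM at 0 h and 1102, 1237 and 1726 CPM at 24 h, so its medians differed by less than the spread in either group. Dnajb11 had 105, 167 and 206 CPM at 0 h and 144, 161 and 229 CPM at 24 h (log2 fold change 0.13 ± 0.13 SE, edgeR adjusted p = 0.431). Creld2 had 32.7, 121 and 243 CPM at 0 h and 60.3, 90.3 and 138 CPM at 24 h, with the range at 24 h inside that at 0 h (log2 fold change -0.49 ± 0.35 SE, edgeR adjusted p = 0.252). Pdia4, Pdia6 and Sdf2l1 had log2 fold changes of 0.13, 0.14 and -0.18 in these livers, with edgeR adjusted p of 0.516, 0.408 and 0.562.

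Whether the 2 genotypes changed differently was tested directly, as the interaction, which is the SIRT1intKO log2 fold change from 0 h to 24 h less the WT one. All 10 estimates were below 0, and they share the livers of 0 h and 24 h and so are not independent of the changes above. Each also equals the SIRT1intKO minus WT difference at 24 h less that at 0 h. The median of these differences over the 10 chaperones was 0.39 at 0 h and -0.24 at 24 h, so the untreated livers enter the estimates too. The interactions ran from -0.02 for Dnajb9 to -1.36 for Creld2 with a median of -0.58, against -0.02 over all genes. None had an edgeR adjusted p under 0.05, where 1 of 14980 genes tested did (0.00668% called higher, and 0% called lower). At an unadjusted p under 0.05 there were 6, namely Dnajb11, Hsp90b1, Calr, Creld2, Sdf2l1 and Pdia4, where 1904 of all genes passed, and DESeq2 gave 0 an adjusted p under 0.05. So the smaller number of chaperones past the threshold in SIRT1intKO livers was not shown to be a difference between the genotypes.

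Dnajb11 had the smallest p of the 10. The difference was -0.71 (95% interval -1.12 to -0.31, edgeR adjusted p = 0.156). The edgeR adjusted p was 0.0297 without SIRT1intKO replicate 5 at 24 h. It was 0.0497 without WT replicates 3 and 4 and SIRT1intKO replicate 5, and 0.0408 without WT replicates 1 and 2. These last fits were added after seeing the data and kept only WT replicates 1 and 2, or only 3 and 4, at 24 h. No other library left out, scaling or filter brought the adjusted p under 0.05. For Creld2 the difference was -1.36 (95% interval -2.45 to -0.28; edgeR adjusted p = 0.279), for Sdf2l1 it was -0.93 (-1.70 to -0.16; edgeR adjusted p = 0.3), and for Hsp90b1 -0.75 (-1.32 to -0.18; edgeR adjusted p = 0.261). For Hspa5 the interval of -1.30 to 0.17 and for Manf that of -1.39 to 0.20 took in both no difference and a difference of more than 1 log2 unit. Dnajb9 had an interval of -0.74 to 0.69 around -0.02. At 6 h the interactions ran from -0.51 for Creld2 to 0.36 for Dnajb9. None of the 10 passed 0.05 in edgeR even before adjustment, where 457 of 14980 genes did.

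**Figure D3:**
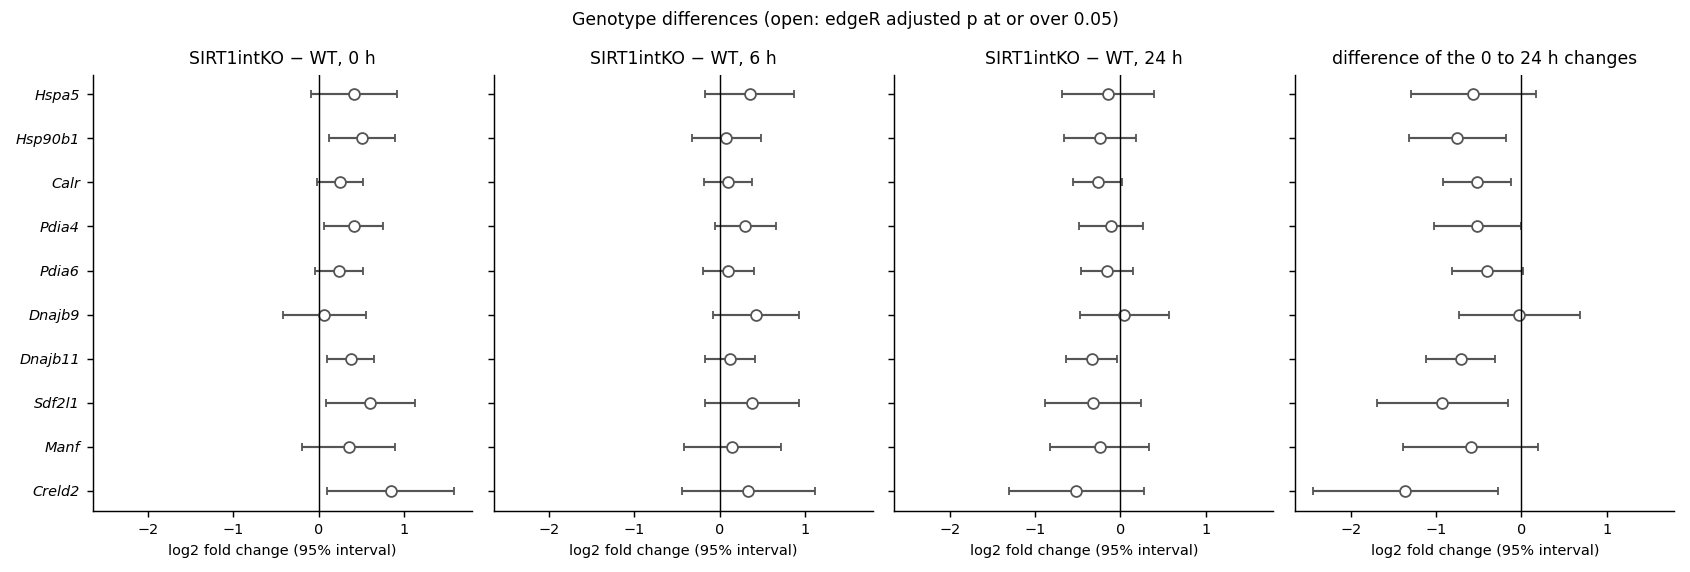
SIRT1intKO minus WT log2 fold changes at 0, 6 and 24 h and, at the right, the interaction at 24 h; bars are 95% intervals before adjustment over genes, and open circles have an edgeR adjusted p at or over 0.05. Every circle is open, with 10 of 10 positive at 0 h and at 6 h, 1 of 10 at 24 h and 0 of 10 for the interaction.

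Between genotypes at a single time, no chaperone was called. Before surgery all 10 were higher on average in SIRT1intKO than in WT livers, by 0.07 (Dnajb9) to 0.85 (Creld2) on the log2 scale, and none had an edgeR adjusted p under 0.05, as for all genes tested (0%). At an unadjusted p under 0.05 there were 5 chaperones, against 161 of all 14980 genes, and DESeq2 gave 0 chaperones an adjusted p under 0.05. The groups overlapped for every chaperone (0.0401% of all genes were higher and 0.0267% lower without overlap). The 95% interval was 0.10 to 0.65 for Dnajb11, 0.12 to 0.90 for Hsp90b1, 0.06 to 0.76 for Pdia4, 0.08 to 1.14 for Sdf2l1 and 0.10 to 1.59 for Creld2.

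At 24 h, 9 of 10 were lower on average in SIRT1intKO livers, and no edgeR adjusted p was under 0.05 (2.3% of all genes were higher and 3.51% lower at that threshold, and 1.38% and 1.3% were called). The smallest was that of Dnajb11, with a log2 fold change of -0.34 (95% interval -0.64 to -0.04, edgeR adjusted p = 0.154). Dnajb11 was the only 1 of the 10 under an unadjusted 0.05, where 3506 of 14980 genes passed. Creld2 had the lowest value, -0.52 (95% interval -1.31 to 0.28), and Dnajb9 the highest, 0.04 (-0.48 to 0.57). Several of these directions depended on single livers or the scaling. Without WT replicates 1 and 2, Hspa5 and Manf were higher in SIRT1intKO livers (0.33 each on the log2 scale), and without WT replicate 2 alone they were at 0.22 and 0.19. Without WT replicates 3 and 4 and SIRT1intKO replicate 5, Pdia4 was at 0.011 and Dnajb9 at -0.15, and with library totals in place of TMM Hspa5 was at 0.016 and Pdia4 at 0.025. At 6 h all 10 were higher on average in SIRT1intKO livers, by 0.08 (Hsp90b1) to 0.43 (Dnajb9). None passed 0.05 in edgeR before or after adjustment (976 of 14980 genes before it and 0% after it). DESeq2 gave 0 of the 10 an adjusted p under 0.05 at 6 h and at 24 h.

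The livers of 1 group also differed among themselves, most of all the untreated SIRT1intKO livers. Over the 10 chaperones the coefficient of variation between livers had a median of 37.8% in SIRT1intKO livers at 0 h, from 23.05% for Calr to 63.6% for Creld2. For 1661 other genes with a mean of at least 68.5 CPM, the level of the lowest chaperone, the median in these livers was 13.04%. In WT livers at 0 h the corresponding medians were 14.2% and 9.66%. At 6 h they were 27.04% and 13.3% in SIRT1intKO livers and 15.9% and 17.1% in WT livers. At 24 h the median of the chaperones was below that of the other genes in both genotypes, with 19.8% against 24.7% in SIRT1intKO and 20.2% against 25.02% in WT livers. Single chaperones ran from 12.2% (Pdia4) to 32.7% (Manf) in SIRT1intKO and from 8.38% (Dnajb11) to 53.7% (Manf) in WT livers. The spread itself was described and not tested. All groups shared 1 estimate of it per gene in the fit. The p-values and intervals therefore do not reflect the wider spread of the untreated SIRT1intKO livers.

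**Figure D4:**
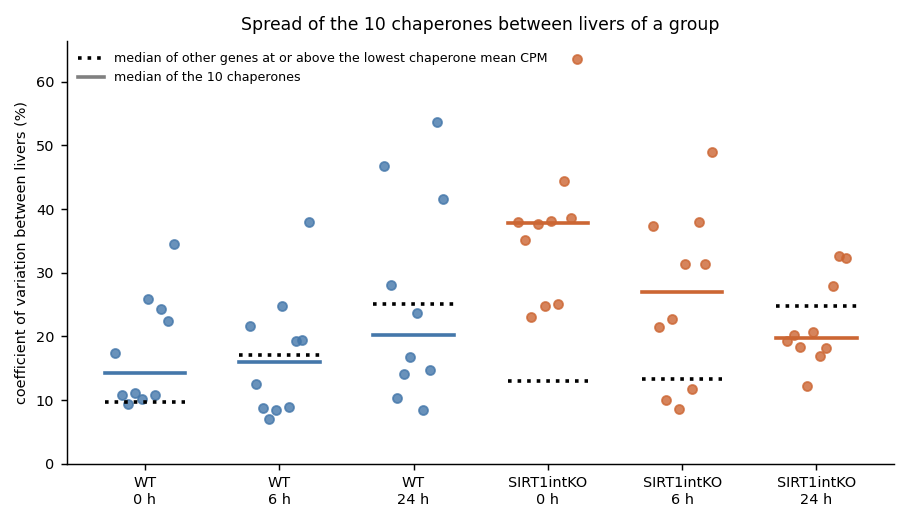
Coefficient of variation between livers, in percent, of each of the 10 chaperone genes (points) in each group, with their median (coloured line) and the median of 1661 other genes with a mean of at least 68.5 CPM (dotted line). The coloured line stands furthest above the dotted one in SIRT1intKO livers at 0 h, at 37.8% against 13.04%.

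The same livers were high or low for most chaperones. At 0 h, SIRT1intKO replicates 2, 4 and 6 were each above their group's median for 9 of the 10 genes, replicate 3 and replicate 5 for 1 and 2, and replicate 1 for none. Replicate 1 was the lowest liver for 8 genes. For Hspa5 the 6 livers had 655, 1410.4, 938, 1883, 1025 and 1748 CPM in the order of their numbers, so the 3 high livers were within the range of WT livers 24 h after PHx and replicate 1 was below every WT liver at 0 h. Creld2 spread further over the same livers, with 32.7, 141, 60.3, 243, 101 and 216 CPM. At 6 h, SIRT1intKO replicates 2 and 4 held the highest value for all 10 genes, 6 and 4 respectively, and replicate 3 the lowest for 7. Among WT livers at 0 h, replicate 4 was lowest for 8 genes, and the range of Hspa5 there, 737 to 1166 CPM, lay inside that of the SIRT1intKO livers.

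**Figure D5:**
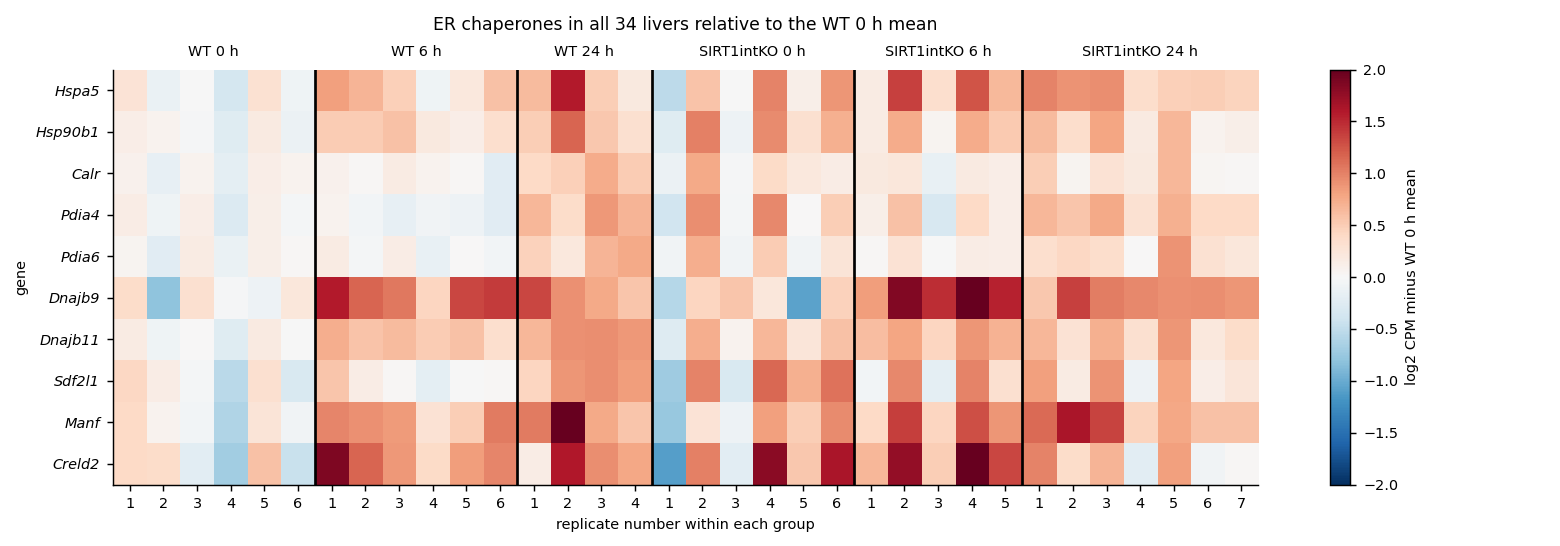
Log2 CPM (prior count 2) of each chaperone in each of the 34 livers minus the mean of the WT livers at 0 h, from blue (lower) to red (higher), with livers in the order of their replicate numbers within each group. SIRT1intKO replicates 2, 4 and 6 at 0 h and 2 and 4 at 6 h are red for most genes. In the row of Dnajb9, every liver at 6 h lies above every liver of its genotype at 0 h.

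Early after PHx the 10 genes did not move together. In WT livers at 6 h, 4 were higher than at 0 h with an edgeR adjusted p under 0.05, Dnajb9, Dnajb11, Manf and Creld2 (18.9% of all genes were higher at that threshold), and 2 of them, Dnajb9 and Creld2, were called (7.17% of genes were called higher and 8.4% lower). The groups did not overlap for 2, Dnajb9 and Dnajb11 (11.5%). In SIRT1intKO livers Dnajb9 alone passed (20.9% of all genes were higher at the threshold), was called (7.86% of genes were called higher and 8.7% lower) and did not overlap (13.2%). Leaving out libraries moved the count of called chaperones in WT livers between 1 and 2, since Creld2 lost its call without WT replicate 1 at 6 h or WT replicates 3, 4 or 6 at 0 h (edgeR adjusted p between 0.0574 and 0.105) and fell under a log2 fold change of 1 in other fits. The call of Dnajb9 in WT livers was also lost with library totals in place of TMM, where its adjusted p stayed under 0.05. With glmTreat Dnajb9 was called in neither genotype.

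Dnajb9 was the chaperone with the clearest early rise. It had 61.5, 109 and 137 CPM in WT livers at 6 h, all above the highest WT liver at 0 h of 59.2 CPM. In SIRT1intKO livers at 6 h it had 81.6, 167, 128, 201 and 134 CPM, again all above the highest liver at 0 h of 67.6 CPM. The log2 fold changes were 1.15 ± 0.24 SE in WT (edgeR adjusted p = 0.000334) and 1.52 ± 0.25 SE in SIRT1intKO livers (edgeR adjusted p = 2.22e-05), 2.22-fold and 2.86-fold. Their difference of 0.36 had a 95% interval of -0.34 to 1.06. From 6 to 24 h Dnajb9 fell by 0.67 on the log2 scale in SIRT1intKO livers (edgeR adjusted p = 0.035), which missed the threshold without SIRT1intKO replicate 2, 4 or 5 at 6 h or 1, 6 or 7 at 24 h (edgeR adjusted p between 0.0504 and 0.151), with all genes of at least 1 count tested (0.0524) and without WT replicates 3 and 4 and SIRT1intKO replicate 5 at 24 h (-0.62, edgeR adjusted p = 0.0562). With library totals in place of TMM the fall was 0.40 (edgeR adjusted p = 0.188). It changed by -0.28 in WT livers (edgeR adjusted p = 0.508).

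The other co-chaperone, Dnajb11, had 157, 186 and 206 CPM in WT livers at 6 h. These lay above all WT values at 0 h, and the log2 fold change was 0.56 ± 0.14 SE (edgeR adjusted p = 0.00172), which went to 0.38 with library totals in place of TMM (edgeR adjusted p = 0.0563). In SIRT1intKO livers it had 190.2, 216, 168, 229.6 and 202 CPM, which overlapped with 0 h (log2 fold change 0.31, edgeR adjusted p = 0.0852). Manf had 176, 268 and 299 CPM in WT livers at 6 h, where the lowest fell within the range at 0 h, and rose by 0.75 ± 0.27 log2 units (SE, edgeR adjusted p = 0.0259), which missed the threshold without WT replicate 4 or 6 at 0 h or WT replicate 1, 2 or 3 at 6 h (edgeR adjusted p between 0.0501 and 0.0665). Creld2 had 91.5, 133 and 256 CPM in those livers, with replicate 1 far above the others (log2 fold change 1.02 ± 0.37 SE, edgeR adjusted p = 0.0288). With library totals Manf (0.55, edgeR adjusted p = 0.067) and Creld2 (0.83, edgeR adjusted p = 0.0719) also missed the threshold.

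Creld2 in SIRT1intKO livers had 111, 236, 97.9, 321 and 177 CPM at 6 h, again with wide spread (log2 fold change 0.51, edgeR adjusted p = 0.297). It then fell by 1.00 to 24 h (edgeR adjusted p = 0.0408), which missed the threshold without SIRT1intKO replicate 2, 4 or 5 at 6 h or 2, 4, 6 or 7 at 24 h (edgeR adjusted p between 0.0654 and 0.189). It also missed it with upper-quartile scaling (0.0504), with all genes of at least 1 count tested (0.0517) and with library totals in place of TMM (-0.74, edgeR adjusted p = 0.113). Hspa5 had 894, 1368 and 1668 CPM in WT livers and 1055, 2440.1, 1189, 2258 and 1485 CPM in SIRT1intKO livers at 6 h, with overlap with 0 h in both, and its log2 fold changes of 0.46 and 0.40 had edgeR adjusted p of 0.141 and 0.221. Fitted on the WT livers of 0 and 6 h alone, Hspa5 and Hsp90b1 had edgeR adjusted p of 0.0223 and 0.00867.

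Calr and the isomerases were late. At 6 h their log2 fold changes lay between -0.20 (Pdia4 in SIRT1intKO livers) and 0.02 (Calr in WT livers), and none had an edgeR adjusted p under 0.05. Calr had 931, 1121 and 1216 CPM and Pdia4 170, 187 and 208 CPM in WT livers at 6 h, much as at 0 h, and Pdia6 had 309.8, 339 and 384 CPM. From 6 to 24 h in WT livers these 3 genes passed an edgeR adjusted p of 0.05 (10% of all genes were higher and 6.43% lower at that threshold) with groups that did not overlap (3.53% of all genes were higher without overlap). The log2 fold changes were 0.51 for Calr, 0.75 for Pdia4 and 0.52 for Pdia6, with edgeR adjusted p of 0.0165, 0.00678 and 0.0187. Pdia4 stayed under the threshold in the fits that follow, unlike the others. Pdia6 missed it without WT replicate 4 at 24 h (edgeR adjusted p = 0.0615), and without WT replicates 3 and 4 and SIRT1intKO replicate 5 both Calr (0.43, edgeR adjusted p = 0.0569) and Pdia6 (0.33, edgeR adjusted p = 0.133) did. With only the compared groups fitted, the adjusted p was 0.0668 for Calr and 0.0629 for Pdia6. None was called with the fold threshold (4.44% of genes were called higher and 2.72% lower). At an unadjusted p under 0.05 there were 4 of the 10, where 4521 of 14980 genes passed. In SIRT1intKO livers the same interval gave 0.14, 0.34 and 0.26, with edgeR adjusted p of 0.443, 0.148 and 0.163, and the 2 chaperones that passed there were lower, Dnajb9 and Creld2 (14.4% of all genes were lower at that threshold, and 3.91% were called lower and 6.7% higher). No chaperone differed there without overlap (5.01% of all genes were lower and 3.79% higher).

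The chaperone genes with and without the first ER stress element, CCAAT and CCACG at a distance of 9 bases, had overlapping changes; Dnajb11, which holds only element II, is counted as without it. In WT livers at 24 h the log2 fold changes of the 5 genes with a match were between 0.53 (Calr) and 0.88 (Creld2), and those of the 4 genes with a window and no match to this element were between 0.65 (Pdia4) and 0.87 (Dnajb9). At 6 h in WT livers the 5 lay between 0.01 (Pdia6) and 1.02 (Creld2) and the 4 between -0.10 (Pdia4) and 1.15 (Dnajb9).

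The sensors and transcription factors above the chaperones changed in their own ways. Ern1, the mRNA of the sensor IRE1, was lower at 6 h in both genotypes, at -1.24 ± 0.17 in WT and -1.29 ± 0.18 in SIRT1intKO livers on the log2 scale (SE, edgeR adjusted p of 1.02e-06 and 1.71e-06). Eif2ak3, the mRNA of PERK, was higher at 24 h by 1.11 ± 0.22 and 1.14 ± 0.19 (SE, edgeR adjusted p of 0.00026 and 1.84e-05). Atf6 rose less, by 0.40 and 0.66 at 6 h (edgeR adjusted p of 0.00379 and 3.83e-05). Of the 9 genes of this list, 5 were higher and 1 lower at an edgeR adjusted p under 0.05 at 24 h in each genotype, where 19.5% of all genes in WT and 26.2% in SIRT1intKO livers were higher.

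Xbp1, whose spliced mRNA encodes a main activator of these chaperones, had 199.5, 277 and 428 CPM in WT livers at 0 h and from 406 to 1163 CPM at 24 h, so the groups overlapped at the edge. Its log2 fold change was 1.21 ± 0.25 SE (edgeR adjusted p = 0.000474). In SIRT1intKO livers it had 217, 318 and 444 CPM at 0 h and 295, 395 and 527 CPM at 24 h, with wide overlap (log2 fold change 0.30 ± 0.22 SE, edgeR adjusted p = 0.253). The difference between these changes was -0.91 ± 0.33 (SE, edgeR adjusted p = 0.258), and SIRT1intKO minus WT at 24 h was -0.74 (edgeR adjusted p = 0.0617). Gene counts do not separate spliced from unspliced Xbp1.

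Hyou1, an exchange factor for BiP, followed the chaperones. It had 133, 173 and 242 CPM in WT livers at 0 h and 239.7 to 356 CPM at 24 h, which overlapped at the edge. Its log2 fold change was 0.70 ± 0.28 SE, with an edgeR adjusted p of 0.04997, almost at the threshold. In SIRT1intKO livers it had 104, 231 and 368 CPM at 0 h and 177, 227 and 336 CPM at 24 h (log2 fold change 0.04, edgeR adjusted p = 0.896). Over the 34 livers its log2 CPM had the highest correlation of all other genes with the mean of the 10 chaperones, with a Pearson r of 0.90 and a Spearman rho of 0.89, and also after group means were subtracted (0.89 and 0.87). Slc35b1, which encodes an ATP transporter of the ER membrane, was second in both (Pearson r of 0.84 and 0.86). After these came Mlec, Slc17a9, Serp1, Dnajc3, Wars1, Prpf31, Ubfd1 and Tmed9, with r down to 0.76. Within groups they were Syvn1, Tmed3, Ubfd1, Sel1l, Slc17a9, Gmppb, Nek9 and Cdk2ap2, with r down to 0.74. All points share the groups and the scaling of the libraries, and no test was made. Among the 10 themselves, Dnajb9 was least like the mean of the other 9 (Pearson r of 0.49, and 0.38 after group means were subtracted), while Hspa5, Hsp90b1 and Dnajb11 had r between 0.89 and 0.90.

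The remaining ER genes were counted by list, beside the 10 chaperones and at an edgeR adjusted p under 0.05, and no enrichment was tested. At that threshold, 19.5% of all genes were higher and 14.6% lower at 24 h in WT livers, and 26.2% and 24% in SIRT1intKO livers. At 6 h it was 18.9% and 18.5% in WT and 20.9% and 17.6% in SIRT1intKO livers. Of 29 tested ER folding factors outside the 10, 14 were higher and 1 lower at 24 h in WT livers and 11 higher and 4 lower in SIRT1intKO livers, with median log2 fold changes of 0.45 and 0.24. The leading gene was not the same in the comparisons: Qsox1, a sulfhydryl oxidase, was highest at 6 h in SIRT1intKO livers (log2 fold change 1.24, edgeR adjusted p = 8.4e-07), and Fkbp11, an ER prolyl isomerase, was the highest in SIRT1intKO against WT livers at 24 h (0.62, edgeR adjusted p = 0.147). In that last comparison 12 of the 29 genes were above 0 and 17 below, down to -0.46. Qsox1 was the lowest there of the genes with a mean of at least 1 CPM. Creld1, related to Creld2, was the lowest at 6 h in SIRT1intKO livers, at -0.81 (edgeR adjusted p = 0.00386). The lowest value of the list in WT livers at 6 h was -0.70. At 6 h, 12 genes of the list were higher in each genotype, and 2 were lower in WT and 4 in SIRT1intKO livers.

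Most genes of translocation into the ER and of transport out of it passed the test as higher in both genotypes. Of 21 subunits of the translocon, the signal peptidase, the signal recognition particle receptor and the oligosaccharyltransferase, 17 were higher and 1 lower at 24 h in WT livers, and 18 higher and 1 lower in SIRT1intKO livers (median log2 fold changes of 0.66 and 0.81). Srprb, a subunit of the signal recognition particle receptor, had log2 fold changes of 1.24 and 1.21 at 24 h (edgeR adjusted p of 1.62e-05 and 1.2e-06). Of 22 genes of ER to Golgi traffic, 15 were higher and 1 lower in each genotype and the others did not pass, with medians of 0.50 and 0.66. Kdelr3, a receptor that returns escaped chaperones to the ER, had at most 0.613 CPM at 0 h in WT and at most 0.31 CPM in SIRT1intKO livers, and 0.498 to 3.26 and 0.798 to 5.94 CPM at 24 h, so only the SIRT1intKO groups did not overlap. Its log2 fold changes were 2.35 and 4.00 (edgeR adjusted p of 0.00128 and 6.18e-07), and these rest on few counts.

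ER-associated degradation, the removal of proteins that fail to fold, was mixed. Of 22 genes, 13 were higher and 0 lower at 24 h in WT livers, and 12 higher and 4 lower in SIRT1intKO livers. Syvn1, the ubiquitin ligase HRD1, changed by 0.13 log2 units in WT (edgeR adjusted p = 0.779) and fell by 1.04 in SIRT1intKO livers (edgeR adjusted p = 0.00244), and the interaction was -1.17 (edgeR adjusted p = 0.249). Edem3, a mannosidase of this pathway, was higher at 6 h by 0.86 and 0.85 in the 2 genotypes (edgeR adjusted p of 5.6e-06 and 1.39e-05).

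Targets of PERK and ATF4 ranged widely at 24 h, with log2 fold changes from -0.02 to 5.12 in WT and from 0.047 to 7.52 in SIRT1intKO livers. Of 15 genes, 6 in WT and 11 in SIRT1intKO livers were higher at an edgeR adjusted p under 0.05, of which 6 and 10 were called, with none lower and median log2 fold changes of 1.49 and 2.31. Psat1, an enzyme of serine synthesis, had at most 0.919 CPM in WT and 0.435 CPM in SIRT1intKO livers at 0 h and 1.26 to 55.7 and 8.82 to 60.3 CPM at 24 h (log2 fold changes 5.12 and 6.71, edgeR adjusted p of 2.24e-05 and 3.29e-07). Fgf21, a liver hormone of the stress response, was the gene of the pathway lists that differed between genotypes at 24 h, with 0.733 to 3.83 CPM in WT and 2.16 to 32.4 CPM in SIRT1intKO livers, which overlapped (log2 fold change 2.85 ± 0.80 SE, edgeR adjusted p = 0.0329). Its interaction at 24 h was 3.06 (edgeR adjusted p = 0.274). In SIRT1intKO against WT livers at 24 h, 9 of the 15 genes were above 0 and 6 below, down to -0.92. Chac1 was the lowest there of the genes with a mean of at least 1 CPM. The interactions at 24 h were above 0 for 11 genes and below 0 for 4, down to -1.06. Ddit3, which encodes the factor CHOP, stood at 0.57 in WT and 0.76 in SIRT1intKO livers on the log2 scale (edgeR adjusted p of 0.147 and 0.0199), and Atf4 at 0.77 and 0.52 (edgeR adjusted p of 0.00534 and 0.0186).

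Chaperones of other compartments were counted in the same way, and the lists were not tested against each other. Of 13 cytosolic heat shock genes, 1 was higher and 0 lower at 24 h in WT livers and 1 higher and 11 lower in SIRT1intKO livers, with median log2 fold changes of -0.46 and -0.66, and at 6 h 0 and 1 were higher and 6 and 9 lower. Hsph1, an HSP110 chaperone, had log2 fold changes of -1.53 and -1.58 at 6 h (edgeR adjusted p of 0.00579 and 0.0068). Of 9 mitochondrial chaperones and proteases, 0 and 1 were higher and 2 and 2 lower at 24 h, with medians of -0.05 and -0.03. At 6 h, 3 were higher and 1 lower in WT livers, and 0 and 1 in SIRT1intKO livers. Clpx, a subunit of a matrix protease, was at -1.44 at 6 h in WT and -1.72 in SIRT1intKO livers (edgeR adjusted p of 5.82e-05 and 1.75e-05). Fgf21 was the 1 gene of all these pathway lists with an edgeR adjusted p under 0.05 between genotypes at 24 h, and no gene of these lists had one for the interaction.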

How the data were processed

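Livers of 34 mice were each sequenced as 1 library, and the labels call the libraries of a group biological replicates, so p-values measure the spread between livers. Per the authors' methods and the submitters' processing notes, reads were processed with nf-core/rnaseq at default settings, aligned with STAR to GRCm39 and quantified with Salmon. The authors deposited 1 table of expected counts per gene, not normalized, in which 4.97% of the values are not whole; these were rounded. Of 35 columns, 34 matched a library and 1 was not used. Symbols of 1316 genes that lacked a letter in the table were restored through gene identifiers.

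Counts were fitted in edgeR 4.0.16 (R 4.3.3, limma 3.58.1; TMM scaling, filterByExpr by group, 6 group means over 34 libraries, quasi-likelihood test) and adjusted by the Benjamini-Hochberg method over 14980 genes. Calls required an adjusted p under 0.05 together with a log2 fold change beyond 1 in either direction. Comparisons with the same 0 h livers share them. No 2 libraries of a group agreed within counting noise, the lowest chi-square per gene being 14.7 over 82 pairs. The 10 chaperones and all lists were chosen with earlier results of these data known. Outside the 10, the sensors Ern1, Atf6 and Eif2ak3, the factors Xbp1, Atf4 and Ddit3, and Hyou1 were named, with the genes highest and lowest in a list in SIRT1intKO against WT at 24 h or in SIRT1intKO livers at 6 h against 0 h, of which some are left out, and the 10 genes with the highest Pearson r to the chaperones' mean log2 CPM. Counts of 14551 genes were simulated with log2 fold changes of 1.5 or 2.5 in SIRT1intKO livers at 24 h. Against 0 h, edgeR called 96 of 100 genes set to 1.5 and 100 of 100 set to 2.5, and 87 and 95 for the interaction. Smaller changes, such as nearly all of those of the chaperones, were not simulated. These counts therefore do not show how often changes of that size are found. Alternatives were DESeq2 1.42.0, other scalings and filters, fits on the compared groups alone, glmTreat, no fold threshold, the replicate number as a block and leaving out each library; fits without the 24 h libraries low or high on the first principal component were added after seeing the data. Promoter windows came from RefSeq tables of GRCm38.p6 and were used for sequence only. The deletion is intestinal, so Sirt1 in liver (group means of 8.66 to 13.6 CPM) does not check the genotype.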

Additional observations from a re-analysis of the deposited data

Results flagged for a closer look

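A single liver stood far from the rest of its group in 2 of the 60 combinations of a chaperone and a group, judged by its gap to the nearest other liver against the whole range of the group (Dixon's 95% critical value); chance gives such a gap in about 1 in 20 groups. Calr, encoding calreticulin, had 975.4 CPM in SIRT1intKO replicate 3 at 6 h, below the other 4 livers of 1192 to 1270.2 CPM. Pdia6, a disulfide isomerase, had 640.6 CPM in SIRT1intKO replicate 5 at 24 h, above the other 6 livers of 343 to 456 CPM. That library was also the one of its group that lay apart on the first principal component.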

How the results depend on the processing

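Of the fold changes of single chaperones under other settings, 631 kept their direction and side of the threshold, 30 lost the threshold, 10 gained it and 19 changed sign; with 1 library left out these numbers were 2446, 33, 10 and 61. Counted were all 10 chaperones in the changes from 0 h, in the genotype differences at 0 and 24 h and the 24 h interaction. From 6 to 24 h only the fold changes that had passed were counted, and at 6 h no genotype difference or interaction. The sign changes listed below come from these fold changes alone. Where a value changed, the cause was not tested. Library totals in place of TMM moved the median of all genes by -0.19 at 6 h in WT, by 0.16 at 24 h in SIRT1intKO livers, by 0.28 from 6 to 24 h there and by 0.18 for the interaction at 24 h. The chaperones had 333 counts or more in each library, so counting error was small beside the spread between livers.

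In WT livers at 6 h, 2 chaperones were called; this was 4 with no fold threshold, 1 with upper-quartile scaling or at least 10 counts in every library, and 0 with library totals or glmTreat, and 4 at an adjusted p under 0.05 went to 1 with library totals, where Dnajb11, Manf and Creld2 missed the threshold (adjusted p between 0.0563 and 0.0719). The 1 call at 6 h in SIRT1intKO livers went to 0 with glmTreat. The 1 call at 24 h in WT livers went to 9 with no fold threshold, 0 with glmTreat, 3 without the 24 h libraries low on the first component and 0 without the WT libraries high on it, where the 9 at an adjusted p under 0.05 went to 4. At 24 h in SIRT1intKO livers, 0 called went to 1 with no fold threshold, and 1 at an adjusted p under 0.05 went to 2 with DESeq2, its size factors, library totals, and both sets of libraries left out. From 6 to 24 h, 0 called went to 3 in WT and 2 in SIRT1intKO livers with no fold threshold, and to 1 in SIRT1intKO livers without either set; the 3 at an adjusted p under 0.05 in WT livers went to 1 with all genes of at least 1 count, and the 2 in SIRT1intKO livers to 1 with upper-quartile scaling, 0 with all genes of at least 1 count and 1 without the low libraries. For the interaction at 24 h, 0 went to 1, Dnajb11, without either set.

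Signs changed for small fold changes. At 6 h in WT livers, library totals gave -0.15 for Calr, -0.17 for Pdia6 and -0.12 for Sdf2l1, and Pdia6 was -0.000117 with upper-quartile scaling and -0.00792 with at least 10 counts. At 24 h in SIRT1intKO livers, Hsp90b1 was 0.048 with library totals, and Calr was -0.00721 with upper-quartile scaling, -0.00638 with at least 10 counts and -0.030 without the low libraries. Between genotypes at 24 h, library totals gave 0.016 for Hspa5 and 0.025 for Pdia4, leaving out the low libraries gave 0.011 for Pdia4 and -0.15 for Dnajb9, and leaving out the high ones gave 0.33 for Hspa5 and 0.33 for Manf. The interaction of Dnajb9 at 24 h was 0.00916 with upper-quartile scaling, 0.15 with library totals and 0.23 without the high libraries.

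The replicate numbers do not pair the libraries: in 0 of 15 pairs of groups did every same-numbered pair have r over 0.1, r ran from -0.31 to 0.22, and in 6 of 76 comparisons a library was most like its own number. With the replicate block, the count at an adjusted p under 0.05 went from 1 to 2 at 24 h in SIRT1intKO livers and from 2 to 0 from 6 to 24 h there, where Dnajb9 (-0.69, adjusted p = 0.0637) and Creld2 (-0.86, adjusted p = 0.136) missed the threshold. At 24 h in WT livers Hspa5 (0.72, adjusted p = 0.0541) and Sdf2l1 (0.76, adjusted p = 0.0694) missed it too. The interaction of Dnajb9 was 0.024.

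Leaving out each library in turn, the number called ran from 1 to 2 at 6 h and 0 to 1 at 24 h in WT livers, and 0 to 1 from 6 to 24 h in SIRT1intKO livers; the number at an adjusted p under 0.05 ran from 2 to 4, 5 to 9 and 0 to 2 there, 1 to 2 at 24 h in SIRT1intKO livers, 2 to 3 from 6 to 24 h in WT livers and 0 to 1 for the interaction at 24 h. Fold changes that changed sign ran from -0.026 to 0.076 (Calr), -0.036 to 0.047 (Pdia6) and -0.052 to 0.16 (Sdf2l1) at 6 h in WT, -0.16 to 0.041 (Hsp90b1) at 6 h and -0.21 to 0.013 (Hsp90b1) and -0.070 to 0.12 (Calr) at 24 h in SIRT1intKO livers, -0.056 to 0.22 (Dnajb9) between genotypes at 0 h, -0.31 to 0.22 (Hspa5), -0.060 to 0.19 (Dnajb9) and -0.42 to 0.19 (Manf) at 24 h, and -0.20 to 0.12 for the interaction of Dnajb9 at 24 h.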
